A study of Mus musculus with 4 samples.

Results

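Interferon-responding microglia were followed in 4 droplet single-cell libraries of mouse brain microglia, the resident macrophages of the brain. A cell belonged to the class when it had 1000 or more UMIs (molecular tags that count each captured transcript once), 500 or more detected genes, at most 10% mitochondrial UMIs, 1 or more UMIs of the microglial gene Tmem119 and 5 or more UMIs summed over the 8 interferon-induced genes Ifit1, Ifit2, Ifit3, Isg15, Irf7, Oasl2, Rsad2 and Ifitm3. This rule found 403 cells among 8220 filtered cells with Tmem119, out of 8486 barcodes. They were compared with 6458 cells of the same libraries that had 0 UMIs of these 8 genes, called 0-UMI cells here, while cells with 1 to 4 UMIs stood between the classes.

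All mice were C57BL/6 and carry the age label P21 (postnatal day 21), the age at which the design text places the irradiation. Irradiated mice received 1 dose of 8 Gy to the whole brain and sham mice served as controls. Sham and irradiated animals were taken 6 h or 1 week later, and 4 mice were pooled into the single library of each group. Wherever 4 values are given below, both 6 h libraries come before both 1 week libraries, with sham first at each time. The labels used here state no sex, and they name the source as brain whereas the design text speaks of hippocampal microglia. Since every group was 1 library, treatment, time and library cannot be told apart, and no test between conditions was made.

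Type I interferons signal through a receptor of 2 chains, Ifnar1 and Ifnar2, and the kinases Jak1 and Tyk2. These activate transcription factors such as Stat2, which acts in a complex with Irf9 that binds interferon-stimulated response elements (ISREs) in the promoters of target genes. The induced genes encode antiviral effectors, nucleic acid sensors, chemokines and parts of the MHC class I pathway, together with feedback inhibitors such as Usp18 and Socs1. In the brain, small groups of microglia that express such genes are known from development, ageing and injury.

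Because the ISRE is the element that many interferon-induced genes are known to share, promoters with its core are shown for genes from the rule and from the results. The sequences are RefSeq promoters of GRCm38.p6, 300 bases each, from 250 bases before to 50 bases after the start of the gene, read 5′ to 3′ on the gene's strand. Capitals mark the motif searched on both strands, GAAA followed by any 2 bases and a second GAAA, which reads TTTC, any 2 bases and TTTC where it lies on the opposite strand. Overlapping matches run together in the capitals.
Isg15 (rule gene, chr4:156200769-156201068, minus strand): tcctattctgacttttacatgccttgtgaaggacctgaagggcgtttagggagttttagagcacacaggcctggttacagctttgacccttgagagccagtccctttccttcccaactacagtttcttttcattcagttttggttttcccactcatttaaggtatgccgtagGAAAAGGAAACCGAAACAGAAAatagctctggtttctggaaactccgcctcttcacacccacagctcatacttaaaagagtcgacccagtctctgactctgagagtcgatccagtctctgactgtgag
Ifit3 (rule gene, chr19:34583279-34583578, plus strand): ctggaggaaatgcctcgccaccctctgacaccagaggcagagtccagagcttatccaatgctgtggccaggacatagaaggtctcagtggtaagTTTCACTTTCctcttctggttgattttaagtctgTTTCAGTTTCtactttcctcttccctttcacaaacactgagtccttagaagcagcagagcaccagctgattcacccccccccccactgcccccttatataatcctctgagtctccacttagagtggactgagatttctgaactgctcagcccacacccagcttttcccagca
Bst2 (antiviral effector, chr8:71537423-71537722, minus strand): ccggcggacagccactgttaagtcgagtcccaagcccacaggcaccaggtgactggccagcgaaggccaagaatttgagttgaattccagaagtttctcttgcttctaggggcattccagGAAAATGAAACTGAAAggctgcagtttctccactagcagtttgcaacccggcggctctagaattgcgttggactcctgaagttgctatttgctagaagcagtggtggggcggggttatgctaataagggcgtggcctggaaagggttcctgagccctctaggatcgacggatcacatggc
Oas1a (antiviral effector, chr5:120907476-120907775, minus strand): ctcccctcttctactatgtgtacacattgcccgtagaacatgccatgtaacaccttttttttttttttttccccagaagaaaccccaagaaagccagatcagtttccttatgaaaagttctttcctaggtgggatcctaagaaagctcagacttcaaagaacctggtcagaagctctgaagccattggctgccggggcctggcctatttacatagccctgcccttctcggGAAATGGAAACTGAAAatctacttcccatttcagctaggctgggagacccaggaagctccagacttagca
Stat2 (transcription factor, chr10:128270248-128270547, plus strand): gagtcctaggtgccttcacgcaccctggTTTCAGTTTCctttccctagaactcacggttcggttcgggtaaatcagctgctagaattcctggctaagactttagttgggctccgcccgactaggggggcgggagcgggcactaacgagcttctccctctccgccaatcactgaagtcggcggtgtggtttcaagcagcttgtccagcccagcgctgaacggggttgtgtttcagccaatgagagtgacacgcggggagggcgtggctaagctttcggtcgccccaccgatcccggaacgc

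Isg15 held 3 overlapping matches, the first beginning 78 bases before the start site, and Ifit3 held 2 separate ones, beginning 156 and 122 bases before it. In Bst2 and Oas1a 2 matches overlapped, beginning 130 and 20 bases before the start, and Stat2 had 1, beginning 222 bases before it. The motif was in 5 of the 8 rule genes (Ifit1, Ifit3, Ifitm3, Isg15 and Rsad2), of which Ifitm3 carried it after the start site. Among all 32851 promoters of this length, 3.44% held it. Counted by gene, it stood in 55 of 309 genes (17.8%) that were higher in the interferon-responding cells and had a promoter entry, in 4 of 132 (3.03%) that were lower and in 238 of 7478 (3.18%) that were not called, by the test described below. Of the interferon-pathway genes called higher, 34 of 86 (39.5%) held it, and of the higher genes outside the pathway lists 21 of 223 (9.42%). A match is a run of letters and not a measured binding site.

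Interferon-responding cells made up 6.14% of the Tmem119-positive cells in sham at 6 h (161 of 2623, exact Clopper-Pearson 95% interval 5.25 to 7.13%) and 9.38% in irradiated at 6 h (178 of 1898, 8.10 to 10.8%). At 1 week they made up 1.09% in sham (17 of 1561, 0.636 to 1.74%) and 2.20% in irradiated (47 of 2138, 1.62 to 2.91%). The share was higher in the irradiated library at both times, with intervals that did not overlap at 6 h and did at 1 week. The sham libraries of the 2 times lay further apart than irradiated and sham at either time. These intervals cover counting error only. Both sham libraries held cells of the class.

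**Figure D1:**
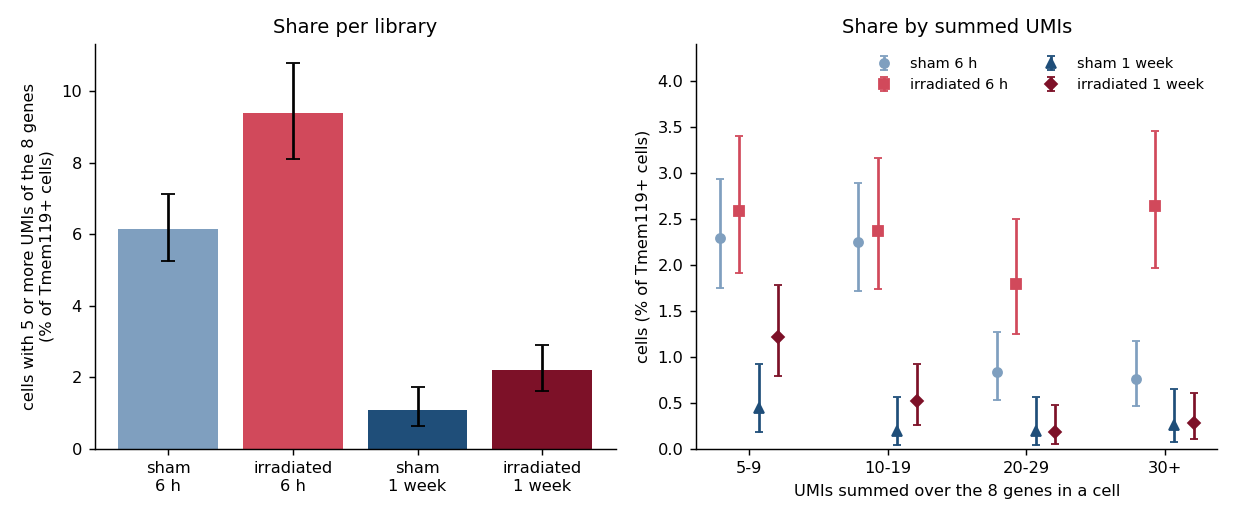
Left, the share of Tmem119-positive cells (%) with 5 or more UMIs of the 8 rule genes in each library, as bars with exact 95% intervals; 6.14 and 9.38% at 6 h stand above 1.09 and 2.20% at 1 week. Right, the share of cells (%) by their summed UMIs of the 8 genes, as points with the same intervals; irradiated at 6 h has 2.63% of cells at 30 or more UMIs and sham at 6 h 0.76%.

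The 6 h libraries differed at some of the low sums and at high sums. Cells with 0 UMIs were 77.0% of sham (75.4 to 78.6%) and 68.3% of irradiated (66.1 to 70.4%). Cells with 1 UMI were 11.4% (10.2 to 12.6%) and 14.6% (13.1 to 16.3%), and cells with 3 UMIs were 1.41% (0.995 to 1.94%) and 3.06% (2.33 to 3.93%). The intervals overlapped at 2 UMIs, with 3.20% (2.56 to 3.95%) and 3.53% (2.75 to 4.46%). They also overlapped at 4 UMIs, with 0.84% (0.53 to 1.27%) and 1.11% (0.69 to 1.69%). Cells with 5 to 9 UMIs were 2.29 and 2.58% of sham and irradiated at 6 h, and cells with 10 to 19 UMIs were 2.25 and 2.37%, with intervals that overlapped widely. From 20 to 29 UMIs the shares were 0.84% (0.53 to 1.27%) and 1.79% (1.24 to 2.49%), and from 30 UMIs they were 0.76% (0.47 to 1.18%, 20 cells) and 2.63% (1.96 to 3.46%, 50 cells). The median sum per member was 13 and 17.5 at 6 h and 13 and 9 at 1 week, and the highest sums were 152, 239, 70 and 113. At the threshold there was no gap in the sums: 22, 21, 7 and 21 cells had 4 UMIs and 19, 18, 4 and 10 cells had 5.

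The rule counts UMIs, so depth enters it. Members had median depths of 3958, 3970, 4276 and 4193 UMIs against 3481, 3437, 3570 and 3386.5 in 0-UMI cells. When cells with 2000 or more UMIs (2541, 1840, 1377 and 2035 cells) were thinned to 2000 UMIs, the shares among them were 3.97, 7.12, 0.654 and 0.983%. The order of size was the same, and cells of lower depth were left out. The 8 genes also gave 0.270, 0.390, 0.139 and 0.244 UMIs per cell among the cells that were not members, and cells with 1 to 4 UMIs numbered 441, 424, 151 and 343. The libraries hold no large cell type that should lack these genes, so a background share could not be set beside these values, and the part of free RNA in them was not tested. Among the 149 filtered cells without Tmem119, which the rule leaves out, 8, 21, 1 and 2 had 5 or more UMIs.

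The defining markers of microglia were present in the members, though 1 of the 9 counted here, Tmem119, was required of both classes by the rule. Its detection was thus fixed in advance, and its UMIs are part of the microglia sums below. All 9 microglia markers (among them P2ry12, Csf1r, Cx3cr1 and Sall1) were detected, at a summed 46585, 32361, 40499 and 44557 CPM (a gene's UMIs scaled to a fixed total for the class in each library) against 50902, 42221, 48301 and 50152 CPM in 0-UMI cells. Of 7 border macrophage markers, 6, 3, 7 and 5 were at 0 in members, and their summed level was 11.9, 19.2, 0.00 and 14.2 CPM against 19.9, 10.8, 11.7 and 22.4 in 0-UMI cells, higher in members of irradiated at 6 h only. All 5 neutrophil markers were at 0 in both classes. The monocyte list was at 213, 137, 151 and 142 CPM in members against 9.0, 12.5, 8.49 and 8.00, of which Plac8 gave 139 of 143, 90 of 107, 11 of 11 and 27 of 30 UMIs. Without Plac8 the other 6 monocyte markers summed to 5.95, 21.8, 0.00 and 14.2 CPM in members and 3.60, 9.71, 5.46 and 6.85 in 0-UMI cells, with Ly6c2 and Chil3 at 0 in members. The oligodendrocyte list was at 31.2, 38.4, 0.00 and 18.9 CPM against 13.9, 15.5, 10.9 and 9.63, and the astrocyte list at 132 to 233 CPM against 145 to 256. The T cell list was at 7.44, 7.68, 41.1 and 4.74 CPM against 2.36, 3.24, 6.07 and 6.69, on 5, 6, 3 and 1 UMIs in members. The dendritic cell list was at 25.3, 6.40, 41.1 and 18.9 CPM against 14.3, 7.55, 15.8 and 13.7, on 17, 5, 3 and 4 UMIs in members. The part of these cell types in the results was not tested. Scrublet, a doublet caller, marked 45 cells, 0.538% of those filtered, and 0 members. Too few cells were marked for that to show an absence of doublets, and 5, 15, 0 and 5 members had over 2 times the median depth of their library. These were 3.11, 8.43, 0 and 10.6% of members, against 1.04, 0.772, 0.861 and 1.32% of 0-UMI cells, and the part of doublets in the results was not tested. Barcode sequences shared between libraries numbered 41, and 4 members carried one.

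The 8 rule genes describe the members and are no finding about them. Members held 80.4% of all UMIs of these genes in Tmem119-positive cells while being 4.90% of those cells. Ifitm3, a membrane protein that blocks virus entry (chr7:141009586-141010770, GRCm38), was at 1284, 1949, 972 and 1227 CPM in members. It was the highest of the 8 in 3 libraries, while Isg15 and Ifit3 were above it in sham at 1 week. Isg15, a ubiquitin-like modifier (chr4:156199424-156200818), was at 692, 1278, 1245 and 592 CPM. Ifit3, which binds viral RNA in a complex with its neighbours (chr19:34583531-34588731), was at 728, 928, 1177 and 677 CPM. Irf7, the factor that amplifies interferon production (chr7:141262706-141266481), was at 418, 495, 246 and 232 CPM, and Oasl2, of the oligoadenylate synthetase family (chr5:114896936-114912234), at 382, 321, 233 and 242 CPM.

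Ifit1 (chr19:34640871-34650009) was at 240, 290, 424 and 256 CPM and Ifit2 (chr19:34550694-34576419) at 193, 331, 315 and 147 CPM. The antiviral enzyme gene Rsad2 (chr12:26442746-26456452) was the least detected, at 156, 284, 219 and 80.5 CPM. It had a UMI in 18.0, 37.6, 29.4 and 14.9% of members. Most members carried several of the genes: 364 had 3 or more, 45 had all 8 and 13 had 1. Ifitm3 was the leading gene in 73, 92, 3 and 26 members.

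**Figure D2:**
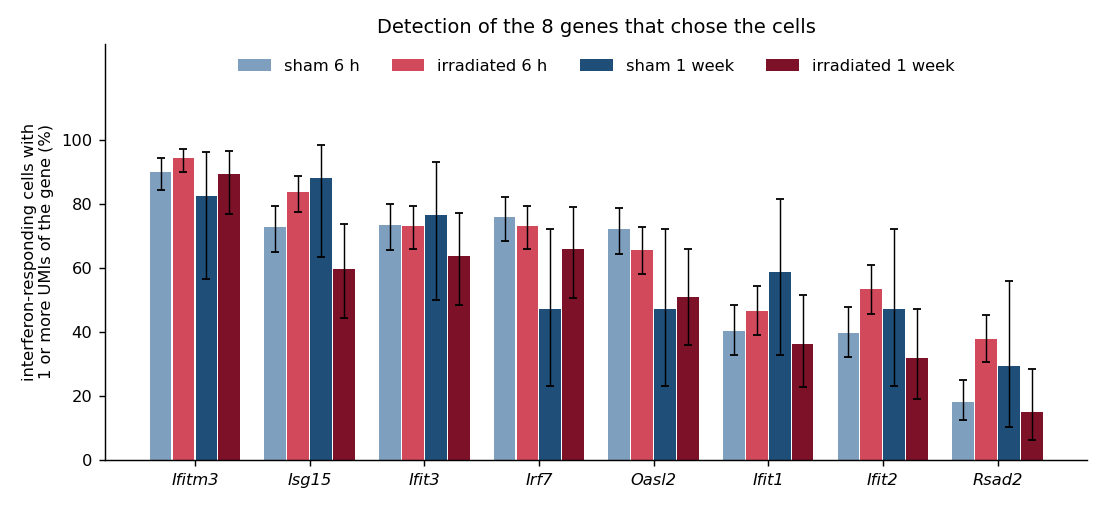
The share of interferon-responding cells (%) with 1 or more UMIs of each rule gene, by library, with exact 95% intervals. Ifitm3 was found in 82.4 to 94.4% of members and Rsad2 in 14.9 to 37.6%.

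To describe what else these cells express, UMIs were summed over members and over 0-UMI cells in each library, and edgeR's quasi-likelihood test compared the 2 sums across the 4 libraries with library as a term. The 8 rule genes were left out. A gene was called at a Benjamini-Hochberg adjusted p under 0.05 over all 10338 genes tested. Fold changes are log2 of members over 0-UMI cells, given with a standard error (SE). The SE was worked back as the size of the fold change over the square root of the test's F statistic. It is no separate estimate, and genes with a like ratio of fold change to SE can differ in adjusted p. Of these genes 592 (5.73%) were called, 420 (4.06%) as higher and 172 (1.66%) as lower in members, and 288 (2.79%) and 143 (1.38%) of these also had that direction in all 4 libraries. Since the cells were chosen for 8 co-induced genes, genes that accompany them differ through that choice. The test sets the class difference over libraries of 4 conditions against a fitted spread. A call does not show that the difference was alike in each library. The class difference has 4 libraries and 3 residual degrees of freedom, and for 98.05% of genes the fit took the spread from all genes together. Without library as a term 194 genes were higher and 12 lower, a fit in which differences between conditions count as error.

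The genes known from the interferon pathway were called in a larger share than the rest. In 10 lists by role, 109 of 144 tested genes (75.7%) were higher and 2 were lower, with a median log2 fold change of 1.85. Outside these lists 311 of 10194 genes (3.05%) were higher and 170 lower, with a median of -0.05. The lists were chosen with earlier results of these data known, and their counts are given beside those of all genes as a description.

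Among the ligands, Ifnb1, the gene of interferon beta (chr4:88522025-88522774), was the only one with any UMI. It gave 8 UMIs in 3 members of sham at 6 h, as 6, 1 and 1 UMIs, and these cells had 117, 152 and 18 UMIs of the rule genes, ranks 2, 1 and 49 in that library. One further UMI was in a cell of irradiated at 6 h with 1 UMI of the rule genes. The other 10 ligand genes on the list, among them Ifna2, Ifna4 and Ifng, had 0 UMIs in all Tmem119-positive cells. Ifnb1 was under the minimum of 50 UMIs and was not tested. With no filter on low counts it was called higher, on 8 UMIs of 1 library against 0 UMIs in 0-UMI cells.

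Receptors and their kinases were not higher in members. Of 8 tested, 0 were higher and 1 was lower, with a median of -0.08 beside -0.05 for all genes. Ifngr1, a chain of the interferon gamma receptor (chr10:19591949-19610229), had 1100, 667, 862 and 966 CPM in members and 1527, 1126, 1292 and 1477 CPM in 0-UMI cells. It was lower in 4 of 4 libraries, by a log2 fold change of -0.58 (SE 0.11, adjusted p = 1.6e-05), and the groups of values did not overlap. Its partner Ifngr2 was at -0.01 (SE 0.13) and Il10rb, a chain of the receptors for interferon lambda and interleukin 10, at -0.12 (SE 0.13). Neither passed the test.

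Of 9 transcription factors tested, 4 were higher and 0 lower, with a median of 0.24. Stat2, whose promoter is printed above, was at 71.4, 98.5, 123 and 61.6 CPM in members and 9.97, 11.9, 9.91 and 7.18 CPM in 0-UMI cells, a log2 fold change of 3.10 (SE 0.22, adjusted p = 5.9e-42). All 4 values in members lay above all 4 in the comparison cells. Irf9, the DNA-binding part of the complex, was at 93.7, 108, 82.1 and 133 CPM against 60.7, 52.6, 49.3 and 51.7, a log2 fold change of 0.99 (SE 0.16). Irf1, a factor also induced by interferon gamma, was at 1.52 (SE 0.18). The factors that microglia express in any case did not pass: Irf8 was at 0.23 (SE 0.11, adjusted p = 0.28) and Irf5 at -0.09 (SE 0.13).

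Nucleic acid sensors and adaptors were higher in 12 of 18 tested, with 0 lower and a median of 1.78. Among them were DNA-binding proteins with a PYHIN domain, whose genes lie together on chromosome 1. Ifi204 (chr1:173747293-173766943) was at 335, 493, 479 and 289 CPM in members and 4.29, 2.16, 2.63 and 1.63 CPM in 0-UMI cells, a log2 fold change of 7.11 (SE 0.18). It was found in 44.7 to 68.0% of members and in 0.572 to 1.29% of 0-UMI cells. Pyhin1 of the same family was at 5.89 (SE 0.26).

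Mnda, a further member, had 21, 148, 5 and 15 UMIs in members and 0, 0, 0 and 1 in 0-UMI cells, so its fitted fold change gives no bound. In irradiated at 1 week, where both classes had UMIs, its log2 ratio was 8.77 (counting interval 6.07 to 14.2). Zbp1, a sensor of Z-form nucleic acid, had 69, 144, 12 and 26 UMIs in members against 6, 3, 2 and 2, and a log2 fold change of 7.82 (SE 0.29). Unc93b1, which carries Toll-like receptors to endosomes, was at 0.25 (SE 0.11) and Tmem173, the adaptor STING, at -0.19 (SE 0.13), and neither passed the test. Genes of this family are close in sequence, so how the upstream counting split reads among them is uncertain.

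Antiviral effectors were called in 21 of 22, all higher, with a median of 2.67. Bst2, which tethers budding virus at the cell surface (chr8:71534255-71537456), was at 1111, 1771, 739 and 1255 CPM in members and 146, 265, 137 and 221 CPM in 0-UMI cells, a log2 fold change of 2.72 (SE 0.12, adjusted p = 1.3e-111). It was also present in 36.7 to 58.6% of 0-UMI cells, so it marks the class by its level and not by its presence. Oas1a, an oligoadenylate synthetase (chr5:120896256-120907521), was at 143, 206, 68.4 and 90 CPM against 5.68, 4.74, 2.22 and 1.63, a log2 fold change of 5.16 (SE 0.22). Tor3a was at 327, 481, 411 and 294 CPM against 52.1, 63.6, 56.2 and 45.2, a log2 fold change of 2.83 (SE 0.13).

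Ifit3b, a copy of the rule gene Ifit3, had 120, 187, 26 and 44 UMIs in members and 5, 6, 0 and 2 in 0-UMI cells, with a fitted log2 fold change of 8.56 (SE 0.25). Reads that fit both copies make this value uncertain, and it is not independent of the rule.

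In the list of Ifi and other interferon-induced genes 39 of 42 were higher and 1 lower, with a median of 2.54. Ifi27l2a, a small mitochondrial protein gene (chr12:103442167-103443680), was at 604, 678, 274 and 867 CPM in members and 28.5, 23.5, 12.3 and 27.1 CPM in 0-UMI cells, a log2 fold change of 4.75 (SE 0.14). In sham at 1 week 17 of its 20 UMIs came from 1 cell. Rtp4, a chaperone of membrane receptors (chr16:23520291-23614222), was at 567, 507, 452 and 531 CPM against 38.8, 26.7, 24.5 and 34.6, a log2 fold change of 4.07 (SE 0.13). Its values in members were nearly level over the 4 conditions, and it was found in 70.6 to 85.4% of them. Phf11b and Phf11d, neighbours on chromosome 14, were at 4.76 (SE 0.15) and 3.89 (SE 0.15). Ms4a6d (0.33, SE 0.13) and Cd274, the gene of PD-L1 (1.10, SE 0.58), did not pass. The 1 lower gene was Ifi27, named here after its value was seen.

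All 10 interferon-inducible GTPases that could be tested were higher, with a median of 2.45, while 7 further genes of the list had under 50 UMIs in all. Some proteins of this group, though not all, attack the vacuoles of intracellular pathogens. Igtp was at 217, 227, 397 and 171 CPM in members and 50.4, 42.5, 49.3 and 59.2 CPM in 0-UMI cells, a log2 fold change of 2.26 (SE 0.14). Irgm1 was at 115, 35.8, 219 and 104 CPM against 14.5, 10.6, 12.3 and 21.2, a log2 fold change of 2.73 (SE 0.21). Both were above the comparison cells in 4 of 4 libraries, with Irgm1 lowest in irradiated at 6 h. Iigp1 was at 7.57 (SE 0.41) on 31, 62, 9 and 14 UMIs in members, and Ifi47 at 5.31 (SE 0.40).

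Feedback regulators were called in 2 of 9, with a median of -0.10. Usp18, which removes ISG15 from proteins and blocks the receptor (chr6:121245906-121270917), was at 231, 369.8, 369.5 and 284 CPM in members and 3.88, 4.31, 2.83 and 5.55 CPM in 0-UMI cells, a log2 fold change of 6.17 (SE 0.17, adjusted p = 1e-273). It had a UMI in 46.8 to 66.3% of members and in 0.861 to 1.83% of the 0-UMI cells. Socs1, an inhibitor of the receptor kinases, was at 19.3, 29.4, 68.4 and 23.7 CPM against 5.54, 7.55, 8.09 and 8.65, a log2 fold change of 2.01 (SE 0.33). Neither Ptpn6 (-0.03, SE 0.12) nor Socs3 (-0.11, SE 0.52) passed the test.

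**Figure D3:**
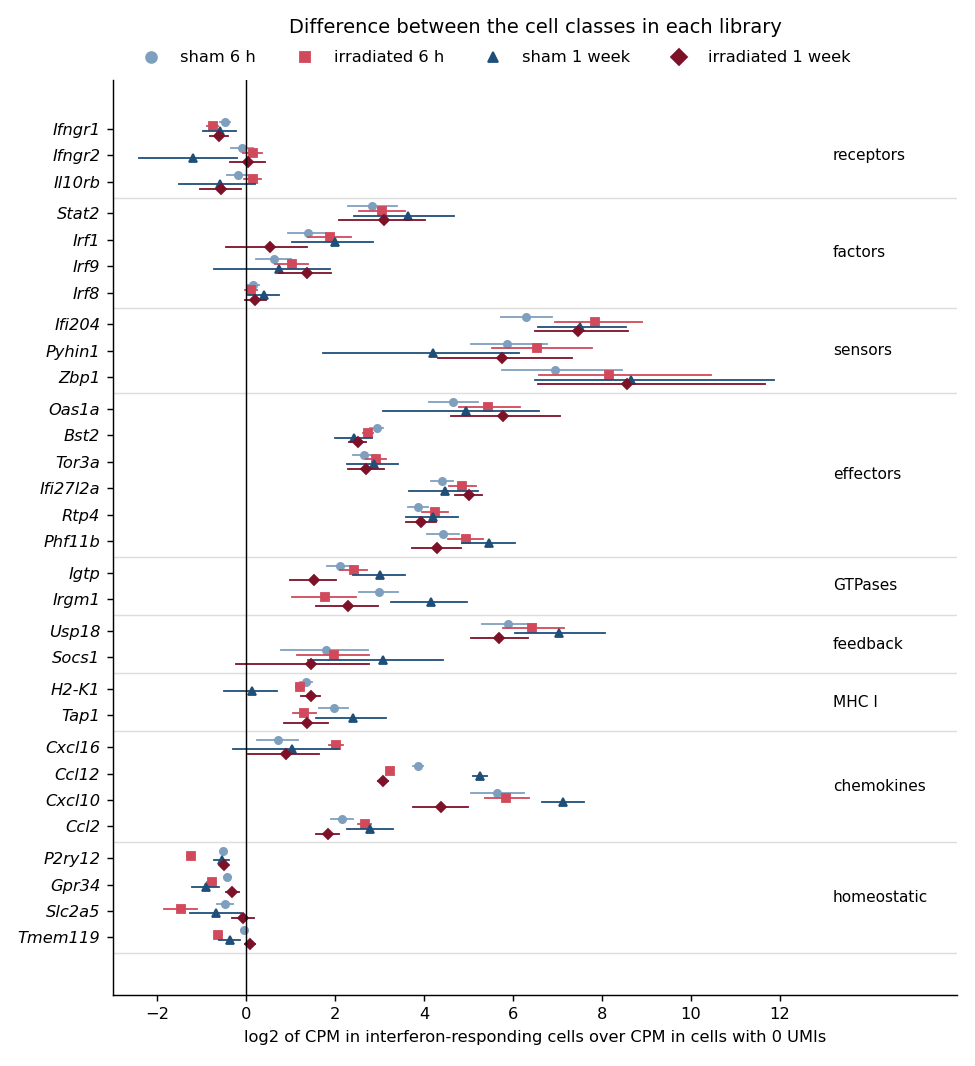
For 30 genes in 9 groups, the log2 ratio of CPM in interferon-responding over 0-UMI cells in each library, with 95% intervals for counting error. Stat2, Ifi204, Bst2 and Usp18 are above 0 in all 4 libraries, Ifngr1 and P2ry12 are below 0 in all 4, and Irf8 lies near 0. Il10rb lies on both sides of 0.

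Interferon-induced chemokines were called in 4 of 5, all higher, with a median of 4.17. Ccl12 was found in most members, while the UMIs of Cxcl10, Ccl5 and Cxcl9 sat in few cells. Ccl12, a ligand of Ccr2 (chr11:82101845-82103400), was the most abundant, at 2515, 5707, 7623 and 4415 CPM in members against 173, 609, 199.6 and 522 in 0-UMI cells. It was higher in 4 of 4 libraries, with no overlap, and found in 70.6 to 91% of members. Its log2 fold change of 3.84 (SE 0.50) had an adjusted p of 0.071 and was not called. The log2 ratios of the single libraries were 3.86, 3.23, 5.26 and 3.08. It was called under DESeq2 (1.7e-16) and without sham at 1 week (4.1e-97).

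Cxcl10, a ligand of Cxcr3, was at 213, 486, 1656 and 189 CPM against 4.29, 8.41, 11.9 and 9.14, a log2 fold change of 5.89 (SE 0.38, adjusted p = 0.00012). It had a UMI in 8, 28, 5 and 3 members, and the highest cell held 60.1, 23.2, 61.2 and 87.5% of its UMIs. Without irradiated at 6 h its adjusted p was 0.17, and with each gene's top cell removed from every sum it was 0.081. Ccl5 was at 354, 1600, 0.00 and 61.6 CPM against 27.0, 77.0, 0.607 and 3.26, a log2 fold change of 4.17 (SE 0.16), and was not called against cells of matched depth (adjusted p = 0.095). Cxcl16 was at 69.9, 727, 95.8 and 71.1 CPM against 42.4, 179, 47.1 and 38.3, a log2 fold change of 1.53 (SE 0.15). Cxcl9 had UMIs in members of irradiated at 6 h only, 48 in 9 cells, and lost its call under DESeq2 (adjusted p = 0.84).

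The MHC class I pathway, which presents peptides to CD8 T cells, was higher in 17 of 21 genes and lower in 0, with a median of 1.10. The class I heavy chain H2-K1 was at 830.3, 2252, 356 and 957 CPM in members and 327, 974, 326 and 349 CPM in 0-UMI cells, a log2 fold change of 1.21 (SE 0.12, adjusted p = 7.1e-23). In sham at 1 week, with 26 UMIs in members, the 2 values were close. The peptide transporter Tap1 was at 165, 215, 219 and 180.0 CPM against 42.3, 86.7, 41.5 and 70.2, a log2 fold change of 1.68 (SE 0.14). H2-Q7 and H2-Q6, near-identical neighbours whose reads may be split uncertainly, were at 3.11 (SE 0.20) and 3.12 (SE 0.26). The chaperones Calr (0.18, SE 0.11) and Pdia3 (0.12, SE 0.11) were not called.

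MHC class II was called in 4 of 6, yet 1 cell of irradiated at 6 h held 325 of the 345 UMIs of H2-Aa, H2-Ab1 and H2-Eb1 in the members of that library. H2-Aa had 0, 120, 0 and 1 UMIs in members, and 117 of the 120 were in 1 cell. With cells of 3 or more UMIs of these genes left out of both classes, 1 of 4 genes still tested was higher. The cells left out were defined by genes of this same list, so leaving them out lowers these genes by its own rule. Cd74, the invariant chain, had 67, 890, 17 and 9 UMIs in members, of which 1 irradiated cell at 6 h held 424. Its log2 fold change was 1.70 (SE 0.15), higher in 4 of 4 libraries.

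Summed levels of the interferon role genes were higher at each step of the rule sum, below the threshold too. The 188 genes of the 10 role lists together took 19631 CPM at 0 UMIs, 24198 at 1 to 4, 33481 at 5 to 9, 40905 at 10 to 19 and 56866 at 20 or more in sham at 6 h. In irradiated at 6 h the same steps were 20923, 25268, 38372, 45137 and 64804 CPM. In sham at 1 week they were 18653, 21022, 28030, 33749 and 69923 CPM, where the 3 upper steps hold 7, 3 and 7 cells, and in irradiated at 1 week 20039, 23166, 33290, 34707 and 66955 CPM. These sums describe a grading that the rule sum orders by its own choice, and no test was made on them. The MHC class I list went from 8266 to 16208 CPM in sham at 6 h and from 9749 to 21163 CPM in irradiated at 6 h. The summed receptors and kinases went the other way, from 2443 to 1616 and from 2087 to 1412 CPM. Ifngr1, the 1 gene of that list called lower, gave most of that sum in 0-UMI cells. The median class difference of that list was -0.08, beside -0.05 for all genes tested, so a fall of the whole list is not shown.

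**Figure D4:**
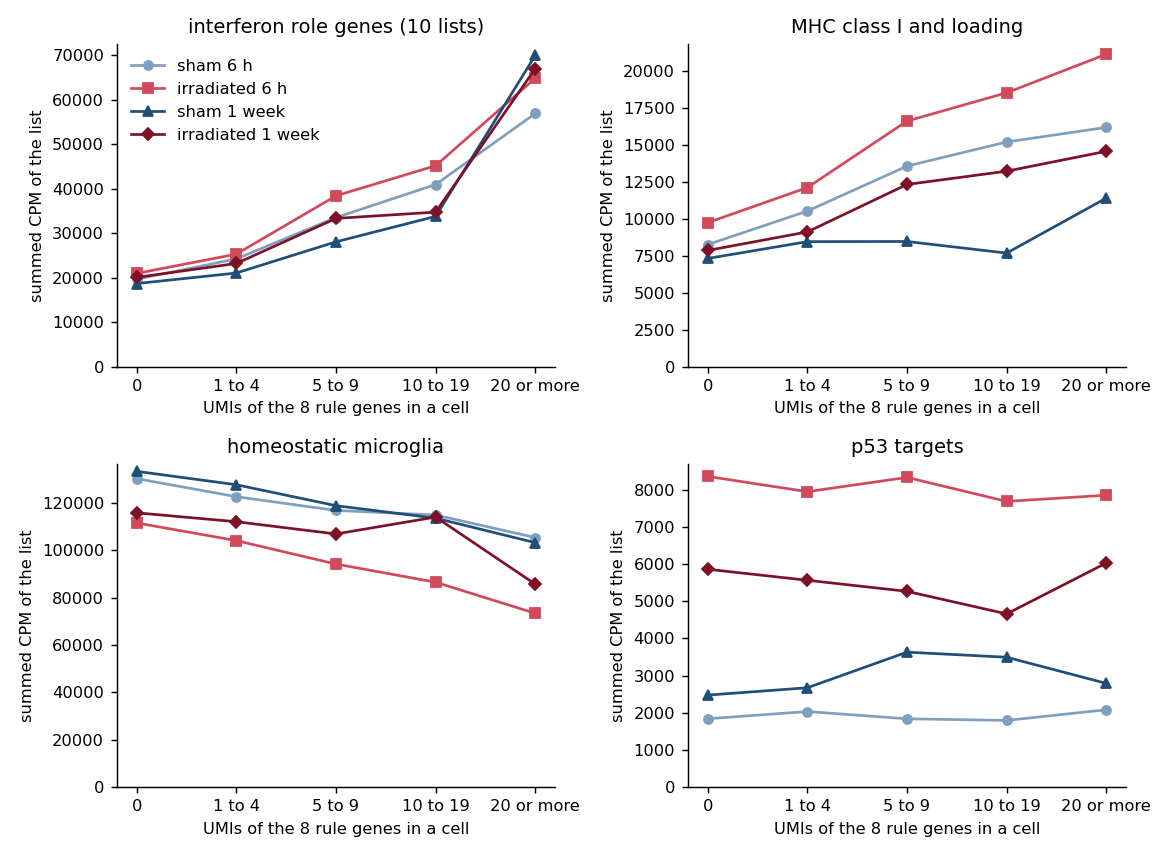
Summed CPM of 4 gene lists (y axis) in cells grouped by their UMIs of the 8 rule genes (x axis), 1 line per library. The interferon role genes reach 56866 to 69923 CPM at 20 or more UMIs, the homeostatic list is at 73386 to 105440 CPM there against 111627 to 133454 CPM at 0 UMIs, and p53 targets keep apart by library.

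Genes of the homeostatic microglia state, which mark surveying cells of the healthy brain, were lower in 7 of 22 and higher in 0, with a median of -0.28. The purine receptor P2ry12 (chr3:59216272-59262871) was at 4849, 1423, 3887 and 4988 CPM in members and 6942, 3354, 5679 and 7110 CPM in 0-UMI cells, a log2 fold change of -0.69 (SE 0.10, adjusted p = 4e-09). It was lower in 4 of 4 libraries, and irradiated at 6 h was lowest in both classes. Gpr34, a lysophospholipid receptor, was at 1863, 1117, 1287 and 1961 CPM against 2499, 1915, 2409 and 2439, a log2 fold change of -0.56 (SE 0.11). Slc2a5, a fructose transporter, was at 405, 84.5, 369.5 and 692 CPM against 565, 235, 588 and 727, a log2 fold change of -0.59 (SE 0.12). It lost its call without irradiated at 6 h (adjusted p = 0.12) and under DESeq2 (0.086).

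Cst3, Fcrls, Golm1 and P2ry13 were the other lower genes of that list. Scaling to the total count alone made 14 of 22 lower and DESeq2 3, and without library as a term 0 were. Tmem119, which the rule required, was at -0.21 (SE 0.11) and not called.

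Disease-associated microglia genes, known from cells around plaques and damage, were higher in 10 of 20 and lower in 1, with a median of 0.49, and this rested largely on irradiated at 6 h. Axl, a receptor for apoptotic cells, was at 47.6, 145, 0.00 and 9.47 CPM in members against 4.16, 9.49, 2.83 and 1.31, a log2 fold change of 3.70 (SE 0.27). Lgals3 was at 43.1, 216, 0.00 and 0.00 CPM against 8.31, 23.5, 9.10 and 0.816, a log2 fold change of 2.88 (SE 0.22), and in sham at 6 h 27 of its 29 UMIs were in 1 cell. Ch25h, which makes 25-hydroxycholesterol, had 1, 45, 0 and 0 UMIs in members and a log2 fold change of 4.06 (SE 0.51). Without irradiated at 6 h 3 of 17 genes were higher, and under DESeq2 4 of 19.

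Inflammatory cytokine and NF-kB genes were higher in 5 of 18 and lower in 0, with a median of 0.35. The monocyte attractant Ccl2 was at 295, 1038, 493 and 654 CPM in members against 66.2, 164, 71.0 and 183, a log2 fold change of 2.37 (SE 0.12, adjusted p = 4.8e-79), with no overlap between the classes. Its neighbour Ccl7 was at 37.2, 163, 95.8 and 137 CPM against 7.07, 23.7, 3.84 and 12.6, a log2 fold change of 3.03 (SE 0.21). Il1b was at 1.92 (SE 0.44) and lost its call without irradiated at 6 h (adjusted p = 0.80). Ccl4 was at 0.73 (SE 0.55) and Apoe at 0.14 (SE 0.11), and neither was called.

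Targets of p53, the factor activated by DNA damage, were called in 4 of 24, with 1 higher (4.17%), 3 lower (12.5%) and a median of -0.05. Over all genes tested 4.06% were higher and 1.66% lower, so the higher share was near that of all genes. The cell cycle inhibitor Cdkn1a was at 98.2, 3257, 219 and 2236 CPM in members and 37.1, 2940, 51.0 and 2223 CPM in 0-UMI cells. Both irradiated libraries were far above both sham libraries in both classes, and within the irradiated libraries the classes were close. Its class difference of 0.54 (SE 0.16, adjusted p = 0.024) was not called under RLE scaling (0.092), total-count scaling (0.67) or DESeq2 (adjusted p = 0.538). The call was also lost without sham at 6 h (0.386), without irradiated at 6 h (0.878) and under further alternatives. Gdf15, a stress cytokine, had UMIs only in members of irradiated at 6 h, 154 CPM against 404, a log2 fold change of -1.31 (SE 0.21). Ddit4 was at 75.9, 214, 13.7 and 99.5 CPM against 145, 327, 40.0 and 116, a log2 fold change of -0.59 (SE 0.15), and Sesn1 was at -0.71 (SE 0.21). None of these 3 was called under DESeq2 (adjusted p of 0.074, 0.26 and 0.31). Bax (0.19, SE 0.13) and Mdm2 (0.23, SE 0.15) were not called.

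Genes of G2 and mitosis were called in 16 of 20, all higher, on a handful of dividing cells. Only 2, 0, 1 and 2 members had 5 or more UMIs of these genes without Hmgb2, against 10, 3, 2 and 20 of the 0-UMI cells. As shares these were 1.24, 0, 5.88 and 4.26% of members and 0.495, 0.231, 0.144 and 1.14% of 0-UMI cells. The dividing members had 5263 to 9037 UMIs in total, and the part of depth was not tested. In sham at 6 h these 2 members held 210 of 254 UMIs of the list. Ube2c had 24, 2, 1 and 13 UMIs in members, of which 1 cell held 17 in sham at 6 h, and a log2 fold change of 2.45 (SE 0.37). Ccnb2 was at 3.13 (SE 0.46) and Cenpe at 3.05 (SE 0.46). With dividing cells left out of both classes 0 of the 4 genes still tested were higher, and without each gene's top cell 2 of 15 were. Dividing cells were defined by genes of this same list, so leaving them out lowers these genes by its own rule. In the S phase list 1 of 18 (5.56%) was higher, near the 4.06% of all genes tested. This gene was Mcm2 (1.28, SE 0.38), which lost its call under DESeq2 (adjusted p = 0.26).

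Immediate early genes, which also respond to cell isolation, were higher in 2 of 18 (11.1%), with a median of 0.27. Over all genes tested 4.06% were higher. Klf2 was at 0.44 (SE 0.11) and Dusp1 at 0.41 (SE 0.12), and both lost their call against cells of matched depth (adjusted p of 0.53 and 0.74). In the complement and phagocytosis list 1 of 14 (7.14%) was higher, a share on 1 gene beside the 4.06% of all genes. This gene was Cfb, a complement protease gene, with 9, 27, 4 and 2 UMIs in members and a log2 fold change of 4.93 (SE 0.49). In sham at 1 week its 4 UMIs were in 1 cell.

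Outside the interferon lists, the genes with the largest change of the same direction in all libraries included further genes of the chromosome 1 cluster. Gm4955 (chr1:173468485-173491041) had 38, 117, 3 and 20 UMIs in members against 6, 0, 0 and 1 in 0-UMI cells, a fitted log2 fold change of 7.91 (SE 0.37). AI607873 (chr1:173723427-173741747) had 43, 130, 3 and 6 UMIs in members and was at 5.88 (SE 0.31). Both lie within the stretch of chromosome 1 that also holds Ifi204, Pyhin1 and Mnda.

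Plac8 (chr5:100553725-100572245), counted among the monocyte markers above, was at 207, 115, 151 and 128 CPM in members and 5.40, 2.80, 3.03 and 1.14 CPM in 0-UMI cells, a log2 fold change of 5.58 (SE 0.22, adjusted p = 7.9e-138). It was found in 34.8, 21.9, 23.5 and 21.3% of members. Fgl2, a fibrinogen-like protein gene, was at 58.0, 66.5, 41.1 and 23.7 CPM against 2.63, 1.94, 3.24 and 1.14, a log2 fold change of 4.57 (SE 0.33). Gm8953 (4.19, SE 0.36), B430306N03Rik (3.74, SE 0.26) and BC147527 (3.54, SE 0.30) completed this set. The calls of Plac8, Fgl2, Gm4955 and AI607873 held under each alternative in which they had a value.

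At the other end the 8 lowest such genes were rarely detected, and the calls mostly turn on 0 to 2 UMIs in members. D130017N08Rik and Prkab2, a subunit of the energy sensor AMPK, had 0 UMIs in all members and 3.46 to 5.66 and 2.77 to 3.84 CPM in 0-UMI cells, so their fitted folds are no bounds. Pank1 and Dgka had 1 UMI each in members, against 4.74 to 8.87 and 4.74 to 8.09 CPM in the 0-UMI cells. Rab4a, 1700025G04Rik, Gm4890 and Dpy19l3 were alike, with fitted log2 fold changes of -3.16 to -2.51. Each of the 8 lost its call when sham at 6 h was left out (adjusted p of 0.088 to 0.53).

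Within the members, irradiated was set against sham at each time with no test, as 1 library stood on each side. At 6 h 401 of 6672 genes with 20 or more UMIs (6.01%) were at least 2-fold higher in irradiated members and 478 (7.16%) at least 2-fold lower. At 1 week, where sham had 17 members, 217 (9.8%) and 96 (4.33%) of 2215 passed that fold. In 0-UMI cells the same counts were 454 (4.32%) and 330 (3.14%) of 10521 at 6 h and 211 (2.03%) and 122 (1.17%) of 10399 at 1 week. The classes differ in cells and so in counting error, and these shares are not compared between them.

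The p53 targets stood higher in the irradiated libraries in both classes. At 6 h 17 of 19 measured targets were 2-fold higher in members, with a median of 2.93, and 22 of 26 in 0-UMI cells, with a median of 2.98. At 1 week 6 of 8 were 2-fold higher in members (median 1.42) and 17 of 23 in 0-UMI cells (median 1.74). Cdkn1a went from 66 to 2545 UMIs in members at 6 h, a log2 ratio of 5.05 (counting interval 4.70 to 5.43), and the ratio in 0-UMI cells was 6.31 (6.13 to 6.49). In sham at 6 h Cdkn1a was 98.2 CPM in members and 37.1 in 0-UMI cells, and 1 sham member held 25 of the 66 UMIs. Bax, a cell death gene, was at 2.35 (2.04 to 2.67) and 2.42 (2.31 to 2.52), and Mdm2, the inhibitor of p53, at 2.52 (1.96 to 3.12) and 2.23 (2.05 to 2.40).

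**Figure D5:**
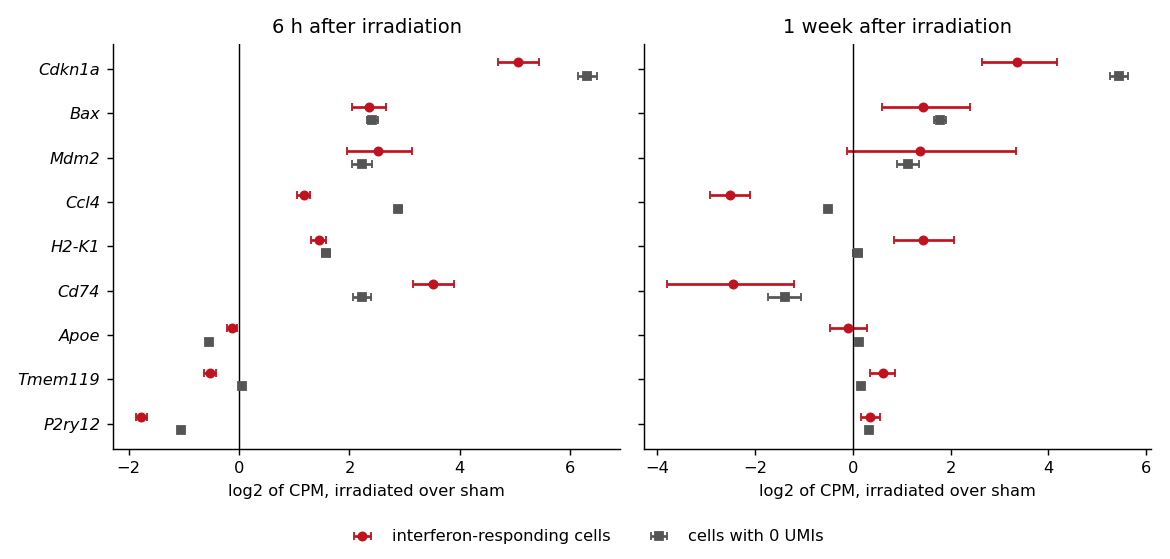
The log2 ratio of CPM in irradiated over sham for 9 genes in interferon-responding cells (circles) and 0-UMI cells (squares), at 6 h and 1 week, with 95% intervals for counting error and no replicate. Cdkn1a, Bax and Mdm2 are above 0 in both classes at both times, though the interval of Mdm2 in members at 1 week includes 0, and P2ry12 is below 0 at 6 h, at -1.77 in members and -1.05 in 0-UMI cells.

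Interferon genes were also compared between irradiated and sham inside the class, where the rule genes describe its choice. Of the 8 rule genes 0 passed 2-fold at 6 h, with a median of 0.48, and Isg15 was at 0.89 (0.73 to 1.05), Rsad2 at 0.86 (0.52 to 1.21) and Oasl2 at -0.25 (-0.51 to 0.00). The antiviral effectors had a median of 0.13 with 1 of 23 at least 2-fold higher, and the Ifi list 0.12 with 5 of 42. All 5 measured chemokines of the interferon list were at least 2-fold higher, with a median of 1.68, as were 3 of 4 in 0-UMI cells, with a median of 1.66. At 1 week 3 of the rule genes were at least 2-fold lower in irradiated members, with Isg15 at -1.07 (-1.47 to -0.67), on 91 UMIs in 17 sham members and 125 in 47 irradiated members. At that time 0 of 3 measured chemokines were at least 2-fold higher in irradiated members and 1 was lower, with a median of -0.79. In 0-UMI cells 2 of 4 were higher, with a median of 0.55. In the Ifi list 3 of 30 were at least 2-fold higher and 7 lower in members (median -0.34). Of the GTPases 0 of 6 were higher and 3 lower (median -0.99). Over all genes measured in members the median was -0.10 at 6 h and 0.09 at 1 week. Of these genes 6.01 and 9.8% were at least 2-fold higher and 7.16 and 4.33% lower. In 0-UMI cells the medians over all genes were -0.05 and 0.03, with 4.32 and 2.03% higher and 3.14 and 1.17% lower.

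H2-K1 was higher in irradiated members at 6 h, at 1.44 (1.30 to 1.58), and in 0-UMI cells at 1.58 (1.5 to 1.65). At 1 week it was at 1.43 (0.83 to 2.08) in members, on 26 sham UMIs, and at 0.10 (0.00 to 0.19) in 0-UMI cells. P2ry12 was at -1.77 (-1.87 to -1.67) in members and -1.05 (-1.08 to -1.02) in 0-UMI cells at 6 h, and at 0.36 and 0.32 at 1 week. The homeostatic list had a median of -0.63 in members and -0.23 in 0-UMI cells at 6 h, with 4 and 2 of 22 genes at least 2-fold lower. Over all genes these medians were -0.10 and -0.05, with 7.16 and 3.14% at least 2-fold lower. Ccl4, a chemokine of activated microglia, was at 1.17 (1.04 to 1.29) in members and 2.88 (2.82 to 2.95) in 0-UMI cells at 6 h, and 1 sham member held 285 of its 732 UMIs. Cd74 was at 3.51 in members at 6 h, where 1 irradiated cell held 424 of 890 UMIs.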

How the data were processed

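The deposited files hold UMI counts per gene and barcode as 10x Chromium matrices, made by the authors with Cell Ranger 2.0 on mm10, per the submitters' processing notes, with gene and barcode names in files beside them. Each library was a pool of 4 mice, with 1 library in each of 4 groups, and total counts per library were 5706955 to 9760928 UMIs over 27998 gene rows. Of 8486 barcodes 8369 passed the filter on cells. Coordinates are from GENCODE M21 (GRCm38), to which 27645 identifiers matched. Doublets were called with Scrublet (scanpy 1.11.5, expected rate 0.06) and left in.

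Counts were summed per library and class, genes with 50 or more UMIs over the 8 sums were kept, and edgeR 4.0.16 (R 4.3.3) fitted library and class with TMM scaling, robust quasi-likelihood and Benjamini-Hochberg adjustment. Libraries pair the classes by design, since each gives both. DESeq2 1.42.0, other scalings, filters, thresholds, comparison cells and left-out libraries were alternatives. Irradiated over sham used CPM of genes with 20 or more UMIs over both sums, with exact conditional binomial 95% intervals that cover counting error only.

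The members and the gene lists were chosen with earlier results of these data known. Genes named are the 8 rule genes, in each interferon list up to 4 called genes with the smallest adjusted p and up to 2 uncalled genes of highest level, outside these lists the 8 called genes of largest and the 8 of smallest log2 fold change with 1 direction in all 4 libraries, in the other lists up to 3 called genes or, with none called, the most abundant, and 9 further genes for irradiated over sham. Of 433 list symbols 7 had no row. Some genes that this rule names are not reported here.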

Additional observations from a re-analysis of the deposited data

Results flagged for a closer look

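For 3 named genes the class difference, as log2 of members over 0-UMI cells, was above 0 in 1 or more libraries and below 0 in others with counting intervals that excluded 0 on both sides. Only libraries with such an interval are given, and the difference between libraries was not tested. Socs3, a feedback inhibitor of cytokine signalling, was at 1.52 in sham at 1 week and at -0.52 in sham at 6 h, -0.61 in irradiated at 6 h and -0.98 in irradiated at 1 week. Ccl4 was at 1.79 in sham at 6 h, 0.0744 in irradiated at 6 h and 1.37 in sham at 1 week, and at -0.63 in irradiated at 1 week. Apoe was at 0.24 in sham at 6 h and 0.65 in irradiated at 6 h, and at -0.43 in irradiated at 1 week.

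For 8 of the 17 genes named for irradiated over sham, the log2 ratio within the interferon-responding cells had opposite signs at the 2 times with both counting intervals clear of 0, also untested and with 17 sham members at 1 week. Ccl4 was at 1.17 at 6 h and -2.50 at 1 week, and Cd74 at 3.51 and -2.45. P2ry12 was at -1.77 and 0.36, and Tmem119, which the rule required, at -0.53 and 0.61. Of the rule genes, Ifit2 was at 0.78 and -1.10, Ifit3 at 0.35 and -0.80, Isg15 at 0.89 and -1.07 and Rsad2 at 0.86 and -1.44. The cells were chosen by the rule genes and Tmem119, so their values describe that choice and are no finding. The share of such opposite signs over all measured genes is not given here.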

How the results depend on the processing

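The count of 420 higher genes was 253 under DESeq2, of which 252 were among the 420, and 194 without the replicate block, that is without pairing the classes by library. It was 248 to 439 with 1 library left out, lowest without irradiated at 6 h. The count of 172 lower genes was 23 under DESeq2, 12 without the block, 333 with total-count scaling, 106 against cells of matched depth and 35 to 184 with 1 library left out (75 without sham at 6 h, 35 without irradiated at 6 h, 114 without irradiated at 1 week). The cause was not tested. Of 69 called named genes 35 lost their call without the block, 13 of 62 under DESeq2, 14 of 68 without sham at 6 h and 14 of 62 without irradiated at 6 h, and 31 kept it under each alternative run. Over all alternatives 0 of the 69 changed sign.

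From 7 UMIs the shares in the 4 libraries, in the order used above, were 4.92, 7.80, 0.705 and 1.45%, and without Ifitm3 4.57, 7.53, 0.833 and 1.22%. Among cells with 2000 or more UMIs, thinned to 2000, they were 3.97, 7.12, 0.654 and 0.983%. From 4 UMIs sham and irradiated at 1 week had 1.54 and 3.18%. With 50 or more UMIs required, which leaves fewer genes, 213 genes were 2-fold higher and 152 lower in irradiated members at 6 h, and 23 and 31 at 1 week.

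Among genes that were not called, Ifngr2 turned to 0.0066 with RLE scaling, 0.0223 at 200 UMIs, -0.15 to 0.10 with 1 library left out (above 0 without sham at 1 week), 0.0325 at matched depth and 0.12 without its top cell, where Irf5 was at 0.0086. Ptpn6 turned to 0.0026 at 200 UMIs, -0.13 to 0.10 with 1 library left out (above 0 without irradiated at 6 h), 0.0321 without Ifitm3 in the rule, 0.0095 with 3 or more rule genes, 0.0068 at matched depth and 0.0752 without its top cell. Socs3 turned to 0.15 without the block, -0.59 to 0.11 with 1 library left out (0.05 without sham at 6 h, 0.03 without irradiated at 6 h, 0.11 without irradiated at 1 week) and 0.0068 without cells of border macrophage or monocyte markers. Pdia3 was at -0.0027 without Ifitm3, and Apoe at -0.10 to 0.33 with 1 library left out (below 0 without irradiated at 6 h), -0.0106 with 3 or more rule genes and -0.10 at matched depth. Leaving out dividing cells, leaving out MHC class II cells and removing each gene's top cell were chosen after seeing the data.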
